A study of Mus musculus with 12 samples.

Results

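The 43 genes described here encode heat shock proteins and their cochaperones, the protein-folding machinery of the cell. They were taken as a named list, and all 43 were found among the 54100 genes shared by the 12 deposited count files. The list was proposed with results of these data known, including the rise of Hspa1a, Hspa1b, Dnajb1 and Hsph1 under SSTC3. The SSTC3 values are therefore given as a description without p-values. A call there only marks a gene past the threshold and is no support for a rise of the list. Most of the proteins work in the cytosol. Those of Hspa9, Hspd1, Hspe1 and Trap1 work in mitochondria, so the list is wider than cytosolic chaperones.

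Messenger RNA was sequenced from mouse cells in 12 libraries, 2 in each of 6 groups, in a study of the kinase CK1α, encoded by Csnk1a1, and cGAS-STING signalling. In the first set, cells labelled BMDM (bone marrow-derived macrophages) with a TREX knockout received SSTC3, known as a CK1α activator, or with its solvent DMSO. The second set is MEF (mouse embryonic fibroblasts) labelled with CK1a overexpression, and its control. The third is MEF with CK1a knockdown by siRNA, and its control. All 6 groups carry the label C57BL/6J. The SSTC3 libraries are named TREX1-KO and TREX2-KO and the DMSO libraries TREX3-KO and TREX4-KO, so the name differs in every library and cannot be told apart from the treatment. No label gives a dose, a time, an age, a construct or an siRNA sequence, or says whether the 2 libraries of a group came from separate cultures. The p-values therefore set a change against the spread between libraries, pooled largely over all genes. That spread may be technical.

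Library totals ran from 16063627 to 19427506 counts. Csnk1a1 had 171.5 and 169.2 CPM (counts scaled to a common library total) in CK1a_KD libraries, against 325.0 and 354.1 CPM in their controls. It had 229.3 and 244.4 CPM in the libraries labelled CK1a_OE, against 237.8 and 234.7 CPM in their controls, so a higher transcript level was not measured there. Of 16 macrophage marker genes, 7 to 10 were at 0 in the libraries labelled BMDM, among them Adgre1, Itgam, Tyrobp and C1qa. Their summed level was 13.3 and 12.5 CPM with SSTC3, against 10.3 and 10.3 CPM with DMSO. The sum of 12 fibroblast markers was 8193 and 8272 CPM with SSTC3, against 9269 and 8978 CPM with DMSO, so the BMDM label did not match the markers. Lum was the only fibroblast marker at 0 in libraries of this set, where the list median was 76.6 to 130.8 CPM. In the libraries labelled MEF, 1 to 3 of the 12 were at 0 (among Lum, Dcn and Thy1), with medians of 16.0 to 32.7 CPM. The set labelled BMDM is called the SSTC3 set below. The fibroblast sum also differed in the other sets, at 3858 and 3866 CPM in libraries labelled CK1a_OE against 4421 and 4380 CPM in controls, and at 4184 and 4278 CPM in CK1a_KD libraries against 3613 and 3564 CPM in controls. The macrophage sum was 23.3 and 22.1 CPM in libraries labelled CK1a_OE against 21.1 and 23.0 CPM in controls, and 322.8 and 325.5 CPM in CK1a_KD libraries against 276.5 and 269.8 CPM in controls. The sum in the knockdown set was mostly Cd68, a lysosomal protein of macrophages that other cells also make, at 296 and 294.6 CPM in CK1a_KD libraries against 252 and 246 CPM in controls, while Lyz2 was lower in both CK1a_KD libraries, at 2.73 and 1.68 CPM against 3.24 and 3.81 CPM in controls. The part of these differences in the chaperone results was not tested. Fewer cells of a type and less RNA per cell cannot be told apart in such bulk libraries.

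HSP70 proteins bind unfolded stretches of other proteins and release them in cycles driven by ATP. J-domain proteins (the HSP40 family) deliver substrates and start ATP hydrolysis, while HSP110 proteins and BAG proteins exchange the nucleotide. HSP90 acts later, on kinases and receptors that are nearly folded, and the TRiC ring encloses newly made actin and tubulin. When unfolded proteins accumulate, the transcription factor HSF1 forms trimers that bind heat shock elements, arrays of alternating GAA and TTC units, and raises a subset of these genes. The members were grouped by this textbook distinction. There were 13 inducible HSF1 targets, 6 abundant genes that HSF1 also raises, 20 constitutive genes, 2 HSP70 genes known for high expression in testis, and the 2 heat shock factors themselves.

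The promoter sequences below are shown because heat shock elements lie in promoters of the inducible class. The set of RefSeq promoters used here (build GRCm38.p6) held an entry for 35 of the 43 members. Each ran from 250 bases before the annotated start to 50 bases after it. The set held no entry for Hspa8, Hspa9, Hsp90aa1, Hsp90ab1, Cryab, Cct4, St13 and Hsf1. The 250 bases before the start are printed 5′ to 3′ on the gene's own strand. Capitals mark matches to GAANNTTC or TTCNNGAA, which are pairs of inverted units. Each of these motifs is its own reverse complement, so a match counts for both strands. The windows are chr17:34972157-34972406 on the minus strand for Hspa1a, chr17:34959239-34959488 on the minus strand for Hspa1b, chr5:135887669-135887918 on the plus strand for Hspb1, chr9:54699309-54699558 on the plus strand for Dnaja4, chr1:55087898-55088147 on the plus strand for Hspe1 and chr8:83607925-83608174 on the plus strand for Dnajb1.
Hspa1a: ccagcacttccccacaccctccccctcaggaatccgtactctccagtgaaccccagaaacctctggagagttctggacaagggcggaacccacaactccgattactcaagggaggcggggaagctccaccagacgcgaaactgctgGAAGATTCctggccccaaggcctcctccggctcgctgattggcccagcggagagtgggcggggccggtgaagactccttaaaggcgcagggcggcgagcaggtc
Hspa1b: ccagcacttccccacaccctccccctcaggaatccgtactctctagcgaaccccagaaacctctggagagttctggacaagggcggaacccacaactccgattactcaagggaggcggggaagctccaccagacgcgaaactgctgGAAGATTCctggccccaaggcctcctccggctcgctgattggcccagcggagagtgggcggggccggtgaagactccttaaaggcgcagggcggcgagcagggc
Hspb1: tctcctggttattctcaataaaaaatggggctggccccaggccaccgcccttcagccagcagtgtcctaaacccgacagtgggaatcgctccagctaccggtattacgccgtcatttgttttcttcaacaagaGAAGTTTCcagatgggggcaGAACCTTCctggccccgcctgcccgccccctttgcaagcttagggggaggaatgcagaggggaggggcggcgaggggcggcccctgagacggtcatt
Dnaja4: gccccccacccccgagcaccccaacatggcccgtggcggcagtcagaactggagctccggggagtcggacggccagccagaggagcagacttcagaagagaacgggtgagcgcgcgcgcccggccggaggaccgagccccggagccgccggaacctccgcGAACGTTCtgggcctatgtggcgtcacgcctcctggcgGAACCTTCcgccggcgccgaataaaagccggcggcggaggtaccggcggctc
Hspe1: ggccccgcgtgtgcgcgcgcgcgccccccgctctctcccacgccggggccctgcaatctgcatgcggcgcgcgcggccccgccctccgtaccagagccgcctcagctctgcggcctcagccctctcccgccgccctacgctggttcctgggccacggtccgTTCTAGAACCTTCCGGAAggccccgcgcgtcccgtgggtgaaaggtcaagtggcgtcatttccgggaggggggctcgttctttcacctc
Dnajb1: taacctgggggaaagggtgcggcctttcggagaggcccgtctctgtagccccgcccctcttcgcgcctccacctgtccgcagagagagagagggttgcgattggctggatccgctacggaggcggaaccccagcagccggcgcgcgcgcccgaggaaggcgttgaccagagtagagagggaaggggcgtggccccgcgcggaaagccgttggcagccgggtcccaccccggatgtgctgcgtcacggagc

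The Hspa1a and Hspa1b windows were identical at 247 of 250 positions, and both held GAAGATTC from position −104. Hspb1 and Dnaja4 each held 2 separate matches. In Hspe1, the gene for the mitochondrial cochaperonin HSP10, the capitals run together because 3 matches overlap. The printed Dnajb1 window held no match to these letters. Over the whole windows, the pair motif was found in 9 of 11 inducible members, 3 of 5 abundant HSF1-raised members and 5 of 16 constitutive members. Over all members it was in 17 of 35, or 48.6%, against 4587 of 27025 genes, or 17.0%. A run of 3 alternating units, which contains the pair motif, was in 5 of 35 members (Hsph1, Chordc1, Hspd1, Hspe1 and Dnajb6), against 0.662% of genes. Genes with several annotated starts had several windows and were counted as holding a motif if any window did. The classes were set by known HSF1 targets, so a high share among them could be foreseen and bears on no result here. Not all matches are separate cases. The Hspa1a and Hspa1b windows are near copies, and Hspd1 and Hspe1, which lie head to head, may share a stretch. A match describes the letters and is not a measured binding site.

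**Figure D1:**
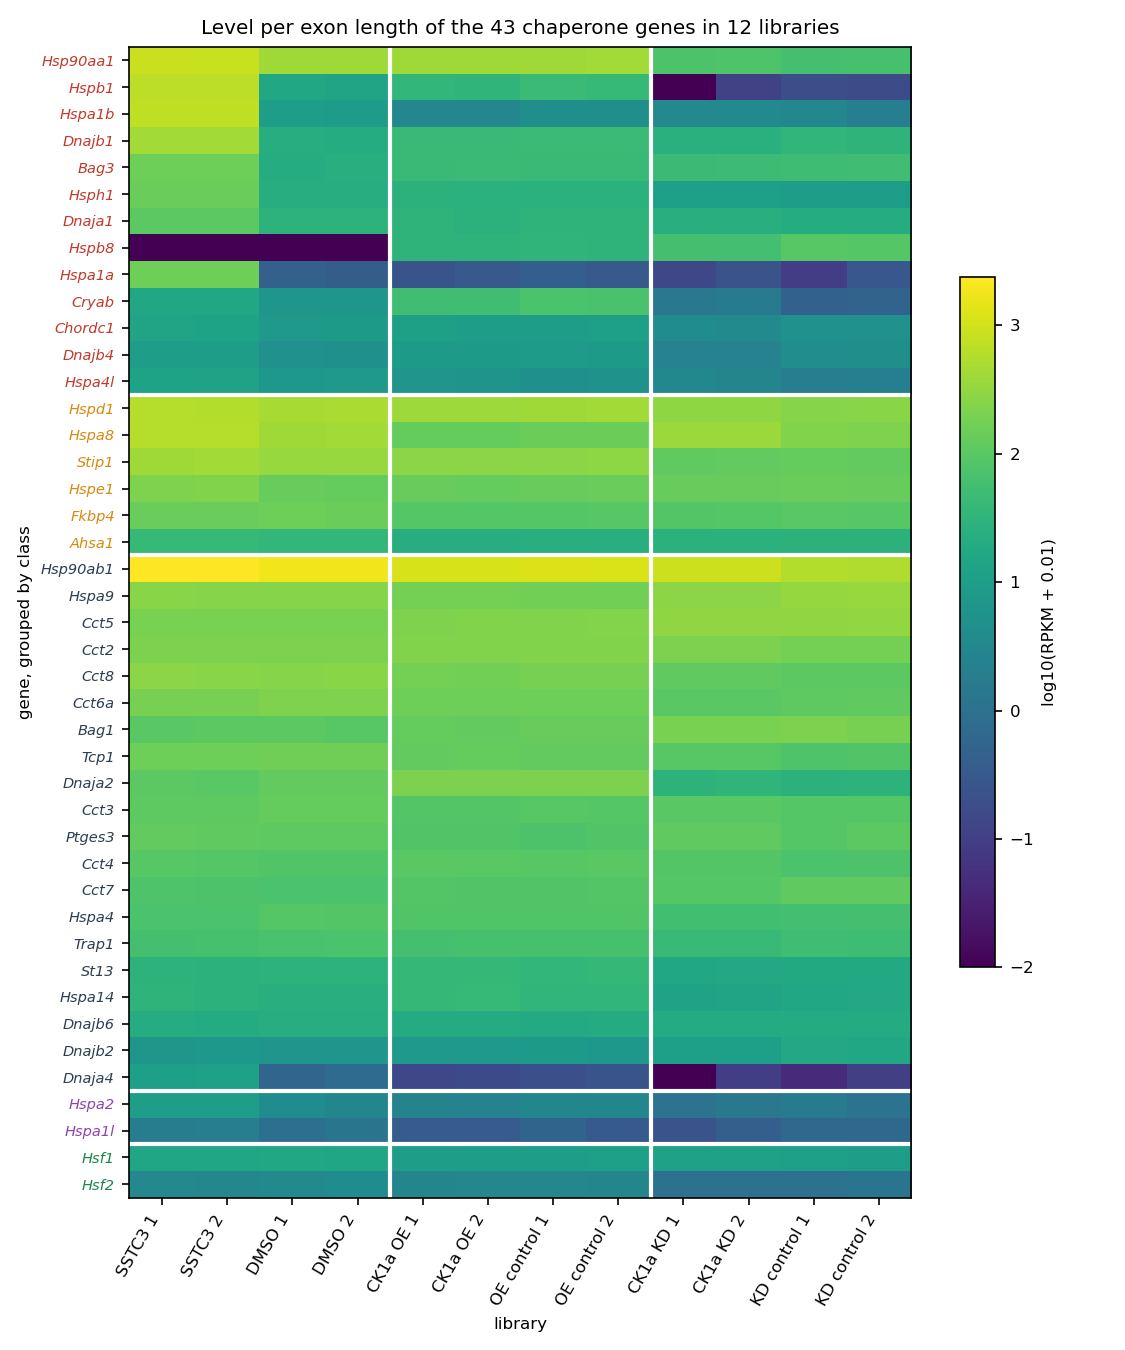
Level of the 43 genes (rows, grouped by class with inducible genes at the top) in the 12 libraries (columns), as log10 of RPKM (CPM divided by exon length in kilobases) plus 0.01. The 2 libraries of each group look alike, Hsp90ab1 is the brightest row in every group, and the upper left block of inducible genes is brighter in the SSTC3 libraries than in the DMSO libraries.

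Levels between genes were compared per exon length, as RPKM. Exon length covers all annotated exons of a gene, so ranks between genes depend in part on the annotation. The HSP90 gene Hsp90ab1 ranked first of the 43 members in all 6 groups, at 2353 ± 23.3 RPKM with SSTC3 and 1824 ± 21.9 RPKM with DMSO (SD, n = 2 each). It averaged 1122 ± 2.83 RPKM in libraries labelled CK1a_OE and 1212 ± 10.6 RPKM in their controls, and 935.1 ± 6.72 RPKM in CK1a_KD libraries and 563.7 ± 13.1 RPKM in their controls (SD, n = 2 each). The next ranks differed between sets. With SSTC3, Hsp90aa1 came second at 852.3 ± 31.0 RPKM, and the inducible genes Hspa1b (729.1 ± 0.99 RPKM) and Hspb1 (704.6 ± 1.34 RPKM) followed. In DMSO libraries the next ranks were Hspd1 (477.5 ± 10.7 RPKM), the abundant HSF1-raised HSP70 gene Hspa8 (413.8 ± 5.16 RPKM) and Hsp90aa1 (400.2 ± 3.11 RPKM). The lowest detected members in DMSO libraries were Hspa1a (0.408 ± 0.0386 RPKM) and Dnaja4 (0.65 ± 0.134 RPKM).

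The sets differed in which small heat shock proteins they held, a difference that was not tested since the sets were not designed to be compared. Hspb8, a small heat shock protein that works with BAG3, had no count in the 4 libraries of the SSTC3 set, where 3 counts correspond to 0.176 to 0.178 CPM. In the overexpression set it had 59.9 to 63.0 CPM. The knockdown set held 114.2 to 184.9 CPM of it. Hspb1, the gene for HSP25, had 0 and 0.105 CPM in CK1a_KD libraries and 0.187 and 0.168 CPM in their controls, at or near the level of 3 counts. It had 33.7 to 48.7 CPM in the overexpression set. Dnaja4, a J-domain protein, likewise had at most 6 counts in each library of the knockdown set.

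In the SSTC3 set, 29 of the 42 members tested were called higher at an adjusted p under 0.05 and 5 lower, and 8 were not called. Over all 14151 genes tested, 27.1% were called higher and 26.5% lower. The list was chosen with this contrast known, so nothing is read from the member counts. The number lower was 8 with scaling by library totals and 3 without SSTC3 replicate 2. All 12 inducible members with counts were higher, with a median log2 fold change of 2.34. Of them 10 were at least 2-fold higher, as were 8.8% of all genes tested. The abundant HSF1-raised members had a median of 0.32, the constitutive members 0.08 and all genes tested 0.01. The inducible class took 1.08% and 1.06% of all counts with SSTC3, against 0.235% and 0.237% with DMSO, and the 43 members together took 3.19% and 3.16%, against 2.07% and 2.07%. Log2 fold changes here come from the edgeR fit with TMM scaling, while the CPM values are scaled by library totals. The standard error (SE), from 2 libraries per group, rests mainly on the spread pooled over all genes tested.

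The major inducible HSP70 genes moved most. Hspa1b (ENSMUSG00000090877) had 2042 and 2046 CPM with SSTC3, against 27.8 and 25.1 CPM with DMSO. Hspa1a (ENSMUSG00000091971) had 468.6 and 462.3 CPM with SSTC3, against 1.29 and 1.13 CPM with DMSO. Both SSTC3 libraries stood far above both DMSO libraries for each gene. The log2 fold change was 6.33 ± 0.05 for Hspa1b and 8.64 ± 0.09 for Hspa1a (SE, n = 2 per group). The counting error of the Hspa1a value was 0.23, since the DMSO libraries held 41 of its counts in all. It is larger than the SE, so that SE is too small. For Hspa1b the counting error was 0.05, as large as its SE.

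Hspa1a and Hspa1b lie next to each other on mm10 chromosome 17 (34969190 to 34972156 and 34956436 to 34959238, both on the minus strand). Their coding sequences were 99.4% identical, and 38.1% of the 150-base windows of the Hspa1a transcript occurred unchanged in the Hspa1b transcript. How reads with more than 1 location were counted is not given in the sources used here, so the split between the 2 genes is uncertain. Their sum does not depend on the split between them, but does depend on whether shared reads were dropped or counted more than once. It was 2510 and 2508 CPM with SSTC3, against 29.1 and 26.2 CPM with DMSO. Hspa1a also shares 19.0% of its exon bases with Gm20481 on the opposite strand.

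Of the 7 J-domain genes, 5 were called higher, 1 lower (Dnaja2) and 1 neither (Dnajb6). Of the 3 HSP110 genes, 2 were called higher and 1 lower. Over all genes tested, 27.1% were called higher and 26.5% lower, and nothing about the families is read from these counts. The Dnajb2 call, 1 of the 5, did not hold under every alternative. Dnajb1, the main stress-induced HSP40, had 1356 and 1372 CPM with SSTC3, against 71.7 and 67.6 CPM with DMSO, a log2 fold change of 4.35 ± 0.04. Dnaja1 had 918.7 and 905.5 CPM with SSTC3, against 255.4 and 254.9 CPM with DMSO, and Dnajb4 had 89.3 and 85.1 CPM, against 46.3 and 43.2 CPM. These 3 J-domain genes kept a wide gap between the groups, while the constitutive Dnaja2 was lower, at 304.9 and 297.7 CPM with SSTC3 against 354.7 and 359.9 CPM with DMSO. Hsph1, the inducible HSP110, had 1071 and 1076 CPM with SSTC3, against 162.4 and 160.9 CPM with DMSO (log2 fold change 2.79 ± 0.04). Hspa4l had 151.5 and 145.8 CPM, against 85.8 and 90.7 CPM. The third HSP110 gene, Hspa4, was lower, at 401.4 and 392.2 CPM with SSTC3 against 502.0 and 488.9 CPM with DMSO, and so its family moved in both directions. Bag3, which links HSP70 to small heat shock proteins and to autophagy, had 396.6 and 403.3 CPM with SSTC3, against 55.7 and 59.1 CPM with DMSO, while Bag1 was not called (log2 fold change 0.07 ± 0.05).

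Dnaja4 was placed in the constitutive class but was called higher, with the fifth largest log2 fold change of the list. It had 662 and 729 counts with SSTC3, against 34 and 45 counts with DMSO (4.19 ± 0.14, with a counting error of 0.17). It shares 44.1% of its exon bases with Wdr61 on the opposite strand, and the strand setting of the counting is not given in the sources used here, so reads of the 2 genes may not be told apart. The testis-enriched HSP70 gene Hspa2 had 25.4 and 27.8 CPM with SSTC3, against 10.9 and 7.54 CPM with DMSO. Hspa1l had 4.65 and 4.84 CPM, against 2.23 and 2.97 CPM, and shares 71.9% of its exon bases with Gm10501 on the opposite strand. With SSTC3, both lay far below Hspa1b at 2042 and 2046 CPM.

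The holdases that keep unfolded proteins soluble were higher too. Hspb1 had 725.5 and 727.5 CPM with SSTC3, against 16.6 and 14.5 CPM with DMSO, a log2 fold change of 5.60 ± 0.05 with a counting error of 0.06. Cryab, the gene for αB-crystallin, had 23.7 and 24.7 CPM with SSTC3, against 9.85 and 10.4 CPM with DMSO (1.31 ± 0.12). The groups did not overlap for either gene. Cryab shares 17.0% of its exon bases with Hspb2 on the opposite strand, so some of its reads may not be told apart from those of Hspb2.

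The inducible HSP90 gene moved more than the constitutive one. Hsp90aa1 had 3437 and 3264 CPM with SSTC3, against 1565 and 1582 CPM with DMSO (log2 fold change 1.15 ± 0.03). Hsp90ab1 had 7104 and 7007 CPM, against 5518 and 5425 CPM (0.42 ± 0.03). The RPKM ratio of Hsp90aa1 to Hsp90ab1 was 0.369 and 0.355 with SSTC3, against 0.216 and 0.222 with DMSO. Chordc1, an HSP90-binding cochaperone, had 101.3 and 99.1 CPM, against 57.3 and 64.8 CPM. The other HSP90 cochaperones moved less, with log2 fold changes of 0.27 for Stip1, 0.17 for Ahsa1, the HSP90 ATPase activator, and 0.17 for Ptges3 (p23), while Fkbp4 was not called at −0.05. St13 and the mitochondrial HSP90 gene Trap1 were not called either, at −0.03 and −0.08.

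Hspa8 had 2540 and 2566 CPM with SSTC3, against 1764 and 1795 CPM with DMSO, a log2 fold change of 0.58 ± 0.03. The mitochondrial chaperonin genes were also higher, Hspe1 by 0.82 ± 0.04 and Hspd1 by 0.37 ± 0.03 on the log2 scale. The 8 TRiC subunit genes, which encode parts of 1 ring, stayed within −0.15 to 0.25 on the log2 scale. Of them, Cct4, Cct5, Cct7 and Cct8 were called higher, Cct3 and Cct6a lower, and Tcp1 and Cct2 neither. Cct3 had 689.2 and 695.1 CPM with SSTC3, against 793.1 and 801.7 CPM with DMSO, and Cct6a had 692.3 and 671.7 CPM, against 766.5 and 782.9 CPM. Among the remaining constitutive members, Hspa14 (0.39), Dnajb2 (0.21) and Hspa9 (0.12) were called higher and Dnajb6 was not called (−0.05). The SSTC3 calls of Cct5, Cct6a, Cct8, Dnajb2 and Hspa9, and of Hspa1l, did not hold under every alternative. Leaving out any 1 of the 4 libraries ended those of Cct5 and Dnajb2, leaving out SSTC3 replicate 2 that of Cct6a, and leaving out SSTC3 replicate 1 that of Cct8.

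The transcripts of the heat shock factors were not higher. Hsf1 had 101.2 and 103.6 CPM with SSTC3, against 111.9 and 109.1 CPM with DMSO, a log2 fold change of −0.06 ± 0.05 that was not called. Hsf2 had 32.6 and 29.8 CPM, against 36.2 and 40.1 CPM, and was called lower (−0.23 ± 0.08), a call lost with DESeq2 and without SSTC3 replicate 2 or DMSO replicate 2. HSF1 is known to be controlled mainly at the protein level, which these data do not measure.

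**Figure D2:**
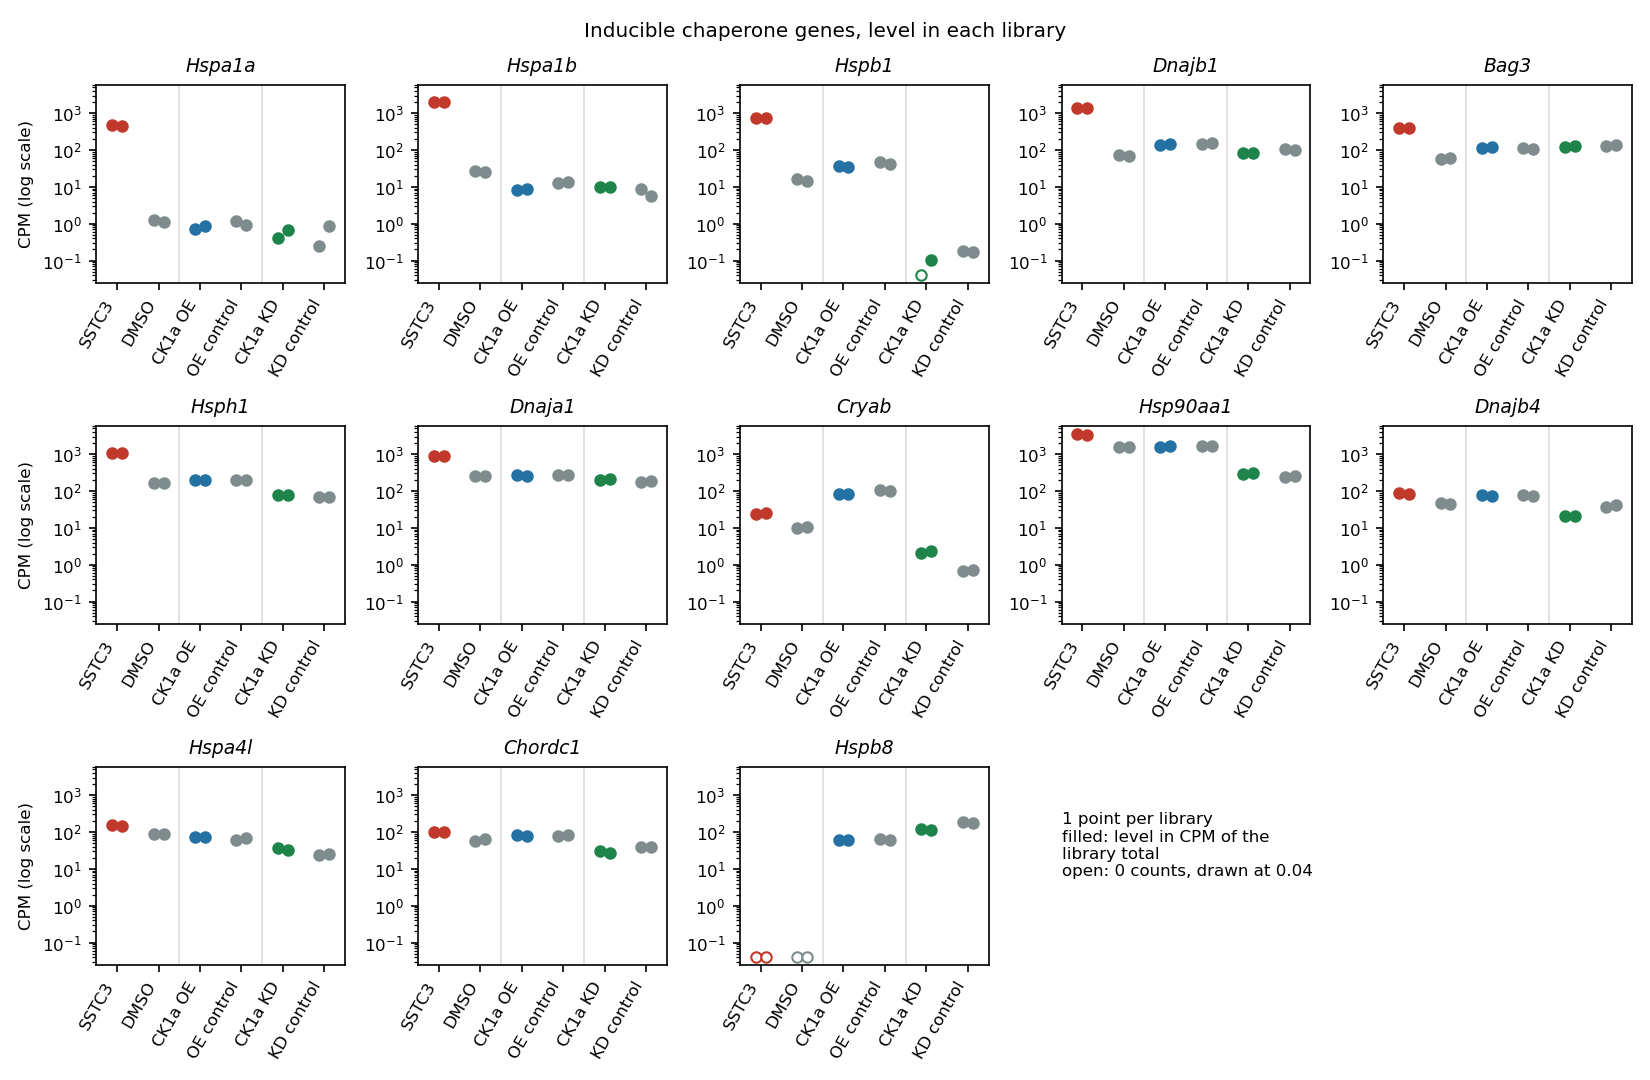
CPM of the 13 inducible genes in each of the 12 libraries on a log axis, with 1 point per library, open points marking 0 counts and vertical lines separating the 3 sets. The SSTC3 points stand above the DMSO points for the 12 genes with counts in that set, from Hsp90aa1 at 3437 and 3264 CPM to Cryab at 23.7 and 24.7 CPM, while the points of the other sets lie close to their controls for most genes.

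In the overexpression set, the changes of the members were small. Of 43 members, 2 were called higher and 10 lower by edgeR's quasi-likelihood test, where 5.78% of 13958 genes were called higher and 7.57% lower. The median log2 fold change of the members was −0.05, against 0 for all genes tested. No member was 2-fold higher or lower, but few genes were, with 62 of 13958 at least 2-fold higher and 246 at least 2-fold lower. Among the members called lower were the most abundant cytosolic HSP90 and HSP70 genes. By DESeq2, none were called higher and 5 lower. The number lower was 6 without OE_control replicate 2, and the number higher was 1 without CK1a_OE replicate 1 or OE_control replicate 1. The calls of Cryab, Hspa8 and Hsp90ab1 held under all 12 alternatives. That of Hspa1b held wherever it had an adjusted p, but DESeq2 gave it none.

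Cryab had 80.5 and 80.6 CPM in libraries labelled CK1a_OE, against 104.8 and 101.1 CPM in controls. Its log2 fold change was −0.37 ± 0.05 (edgeR, adjusted p = 3.04e-07). Hspa8 had 552.3 and 557.7 CPM, against 631.8 and 621.7 CPM in controls (−0.19 ± 0.03, edgeR, adjusted p = 7.72e-07). Both genes fell with no overlap between the groups. Hsp90ab1 had 3359 and 3370 CPM in libraries labelled CK1a_OE, against 3657 and 3611 CPM in controls (−0.12 ± 0.02, edgeR, adjusted p = 1.35e-06). Hspa1b had 8.45 and 8.76 CPM, against 13.1 and 13.6 CPM in controls (−0.64 ± 0.14, edgeR, adjusted p = 0.00111). Hspa1a was too low for a firm value, at 0.714 and 0.894 CPM against 1.15 and 0.93 CPM in controls, and was not called (−0.39 ± 0.48).

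Hspb1 also fell, with 37.4 and 33.7 CPM in libraries labelled CK1a_OE against 48.7 and 42.0 CPM in controls (−0.36 ± 0.08, edgeR, adjusted p = 0.00101). That call was lost with DESeq2, where the adjusted p was 0.059, and without OE_control replicate 1, where it was 0.0816. The other members called lower were Bag1 (−0.15), Cct8 (−0.10), Hspd1 (−0.10), Cct3 (−0.09) and Stip1 (−0.09), and none of these calls held under every alternative. Without OE_control replicate 2 the adjusted p by edgeR was 0.126 for Cct8, 0.108 for Hspd1, 0.0714 for Cct3 and 0.546 for Stip1. Without CK1a_OE replicate 2 it was 0.0845 for Bag1, 0.0594 for Cct3 and 0.0639 for Stip1, and without OE_control replicate 1 it was 0.117 for Bag1 and 0.232 for Cct3. Hspa14, an HSP70 that sits on the ribosome, rose to 155.6 and 158.6 CPM in libraries labelled CK1a_OE, against 137.5 and 138.9 CPM in controls (0.17 ± 0.04, edgeR, adjusted p = 0.00286, and 0.053 with DESeq2). Hspa4l had 74.1 and 72.2 CPM, against 59.0 and 68.1 CPM in controls (0.19 ± 0.06, edgeR, adjusted p = 0.0295, with 0.543 without OE_control replicate 1 and 0.106 without CK1a_OE replicate 1).

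The other inducible members were not called in this set. Dnajb1 had 138.7 and 142.5 CPM in libraries labelled CK1a_OE, against 147.8 and 151.0 CPM in controls. Hsp90aa1 had 1601 and 1621 CPM, against 1628 and 1647 CPM in controls, and Hsph1 had 203.0 and 196.2 CPM, against 195.5 and 196.1 CPM. Their log2 fold changes lay between −0.10 and 0.01. Bag3 (110.2 and 119.1 CPM, against 110.0 and 104.9 CPM in controls), Dnaja1 (270.2 and 251.0 CPM, against 264.6 and 270.2 CPM) and Dnajb4 (75.96 and 75.3 CPM, against 79.8 and 74.6 CPM) were likewise not called. Chordc1 (83.1 and 78.1 CPM, against 78.95 and 81.4 CPM) and Hspb8 (61.8 and 60.8 CPM, against 63.0 and 59.9 CPM) overlapped between the groups. Hsf1 had 72.3 and 68.2 CPM in libraries labelled CK1a_OE, against 73.4 and 76.9 CPM in controls, and Hsf2 had 28.6 and 29.6 CPM, against 29.4 and 27.6 CPM. Neither factor was called. The remaining members not called lay between −0.63 (Dnaja4, at under 1 CPM) and 0.06 (Ptges3) on the log2 scale.

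**Figure D3:**
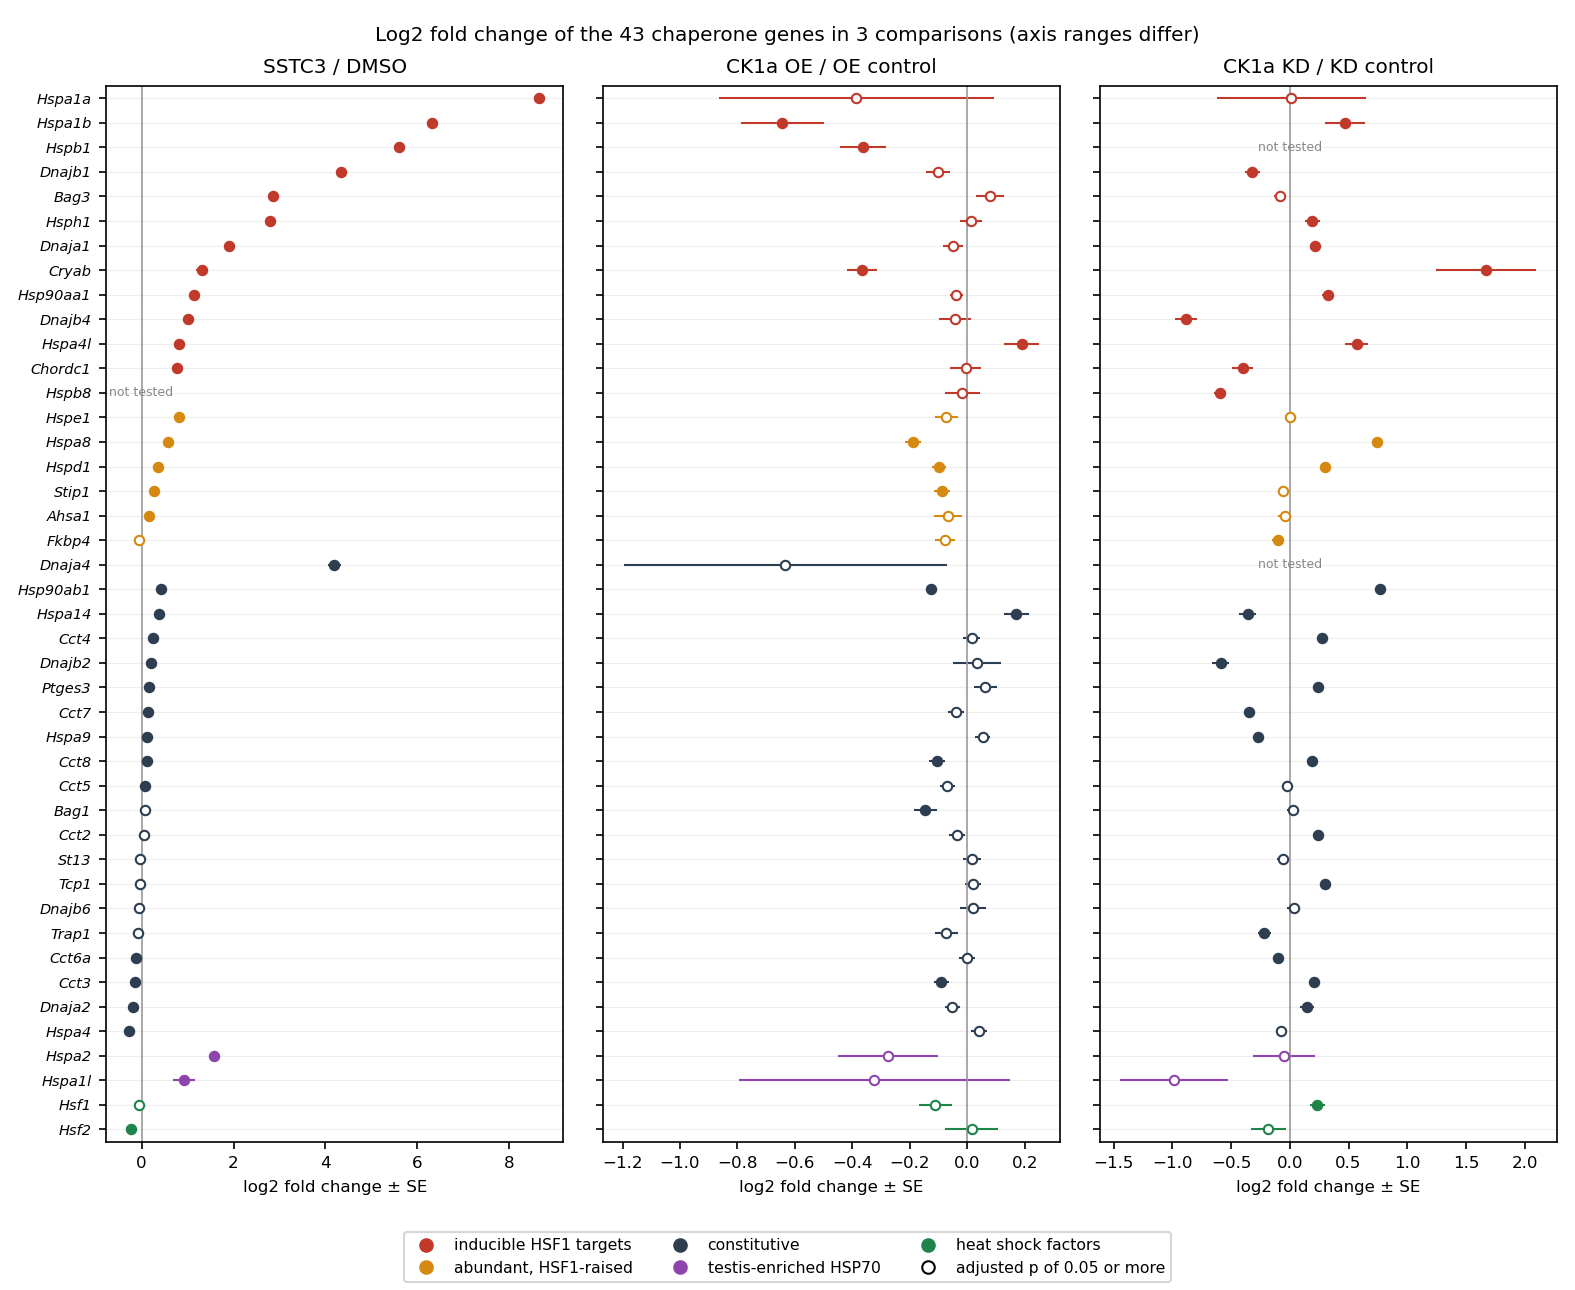
Log2 fold change with its SE for each member in the 3 comparisons, 2 libraries per group, coloured by class, with filled points for genes called at an adjusted p under 0.05 and axis ranges that differ between panels. The inducible genes spread out to 8.64 in the SSTC3 panel, lie between −0.64 and 0.19 in the overexpression panel, and lie on both sides of 0 in the knockdown panel, from −0.88 to 1.67.

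In the knockdown set, the members split in both directions. Of the 41 tested, 17 were called higher and 11 lower by edgeR, where 28.3% of 14832 genes were called higher and 26.4% lower. The inducible class had 6 members higher, 4 lower and 2 not called, with a median log2 fold change of 0.10 (−0.038 with all 12 libraries in 1 fit), against −0.01 for all genes tested. The smallest p-values were those of the constitutive Hsp90ab1 and of Hspa8, of the abundant HSF1-raised class. The 43 members together took 1.38% and 1.39% of counts in CK1a_KD libraries, against 1.24% and 1.24% in controls.

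Hsp90ab1 rose to 2790 and 2818 CPM in CK1a_KD libraries, against 1718 and 1663 CPM in controls (log2 fold change 0.77 ± 0.04, edgeR, adjusted p = 2.11e-27). Hspa8 rose to 1564 and 1559 CPM, against 960.3 and 953.5 CPM in controls (0.74 ± 0.04, edgeR, adjusted p = 4.5e-26). Both changes held under all 12 alternatives, and the libraries of the 2 groups stood far apart. Hsp90aa1 rose less, with 294.2 and 309.7 CPM in CK1a_KD libraries against 238.6 and 256.2 CPM in controls (0.32 ± 0.05, edgeR, adjusted p = 1.15e-08). The RPKM ratio of Hsp90aa1 to Hsp90ab1 was 0.0805 and 0.0838 in CK1a_KD libraries, against 0.106 and 0.118 in controls.

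Among the HSP110 and J-domain partners of HSP70, the directions differed. Hspa4l had 37.1 and 32.6 CPM in CK1a_KD libraries, against 23.1 and 24.9 CPM in controls (0.57 ± 0.10, edgeR, adjusted p = 7.08e-07). Hsph1 had 76.8 and 79.8 CPM, against 70.5 and 69.9 CPM (0.19 ± 0.06, edgeR, adjusted p = 0.00883), and Dnaja1 had 205.1 and 209.6 CPM, against 179.9 and 185.3 CPM (0.22 ± 0.05, edgeR, adjusted p = 7.89e-05). These HSP110 and J-domain genes rose, the Hsph1 call being lost with DESeq2 and without CK1a_KD replicate 2. Dnajb4 fell to 21.2 and 20.7 CPM in CK1a_KD libraries, against 37.9 and 41.0 CPM in controls (−0.88 ± 0.10, edgeR, adjusted p = 2.19e-12). Dnajb1 fell to 81.5 and 81.7 CPM, against 109.8 and 98.8 CPM (−0.32 ± 0.06, edgeR, adjusted p = 9.23e-06). Dnajb2, a neuron-enriched J-domain protein, fell to 46.3 and 46.4 CPM, against 75.8 and 67.0 CPM (−0.59 ± 0.07, edgeR, adjusted p = 2.62e-10). Of the other J-domain genes, Dnajb6 was not called (0.03), Dnaja4 was not tested, and Dnaja2 was called higher, the Dnaja2 call (0.14) being lost under 6 alternatives, including those without CK1a_KD replicate 2 or KD_control replicate 1.

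Hspa1b had 9.63 and 9.83 CPM in CK1a_KD libraries, against 8.84 and 5.66 CPM in controls. The gap between the 2 control libraries was larger than that between the groups' nearest libraries. It was called higher by edgeR (0.47 ± 0.17, adjusted p = 0.018), but the adjusted p was 0.189 with DESeq2, 0.464 without KD_control replicate 2 and 0.0781 without CK1a_KD replicate 2. Hspa1a had 0.412 and 0.684 CPM, against 0.249 and 0.841 CPM in controls, and was not called.

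Of the small heat shock proteins, Hspb8 fell to 121.1 and 114.2 CPM in CK1a_KD libraries, against 184.9 and 178.6 CPM in controls (−0.59 ± 0.05, edgeR, adjusted p = 1.1e-15). Cryab, at a very low level in this set, rose, with 2.11 and 2.31 CPM in CK1a_KD libraries against 0.685 and 0.729 CPM in controls (1.67 ± 0.43, edgeR, adjusted p = 0.000672). Its values rest on 85 counts in CK1a_KD libraries and 24 in controls, and may hold reads of Hspb2. Bag3, the partner of HSPB8, was not called, at 120.3 and 125.3 CPM against 130.0 and 136.3 CPM in controls. It was called lower with all 12 libraries in 1 fit. Chordc1 fell to 30.2 and 27.2 CPM in CK1a_KD libraries, against 38.8 and 38.7 CPM (−0.40 ± 0.09, edgeR, adjusted p = 0.000117).

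The TRiC genes did not move as 1 unit. Tcp1 (0.30), Cct4 (0.27), Cct2 (0.24), Cct3 (0.21) and Cct8 (0.19) rose on the log2 scale, Cct7 (−0.35) and Cct6a (−0.10) fell, and Cct5 was not called (−0.02). Tcp1 had 469.7 and 486.6 CPM in CK1a_KD libraries, against 389.3 and 404.8 CPM in controls (edgeR, adjusted p = 7.5e-09). Cct7 had 611.8 and 605.4 CPM, against 799.4 and 787.8 CPM (edgeR, adjusted p = 2.55e-11). The Cct6a call was lost under 5 alternatives, among them leaving out either CK1a_KD library. Per exon length, the highest TRiC subunit was 3.44 and 3.55 times the lowest in CK1a_KD libraries, against 4.37 and 4.21 times in controls. The highest was Cct5 and the lowest Cct4, with annotated exon lengths of 2766 and 4201 bases. These lengths cover all annotated exons, so the ratio depends on the annotation and does not measure an imbalance of the subunits. In CPM, the control means were 864.2 for Cct5 and 306.2 for Cct4. The protein ring takes equal numbers of its subunits, and these values are transcript levels.

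**Figure D4:**
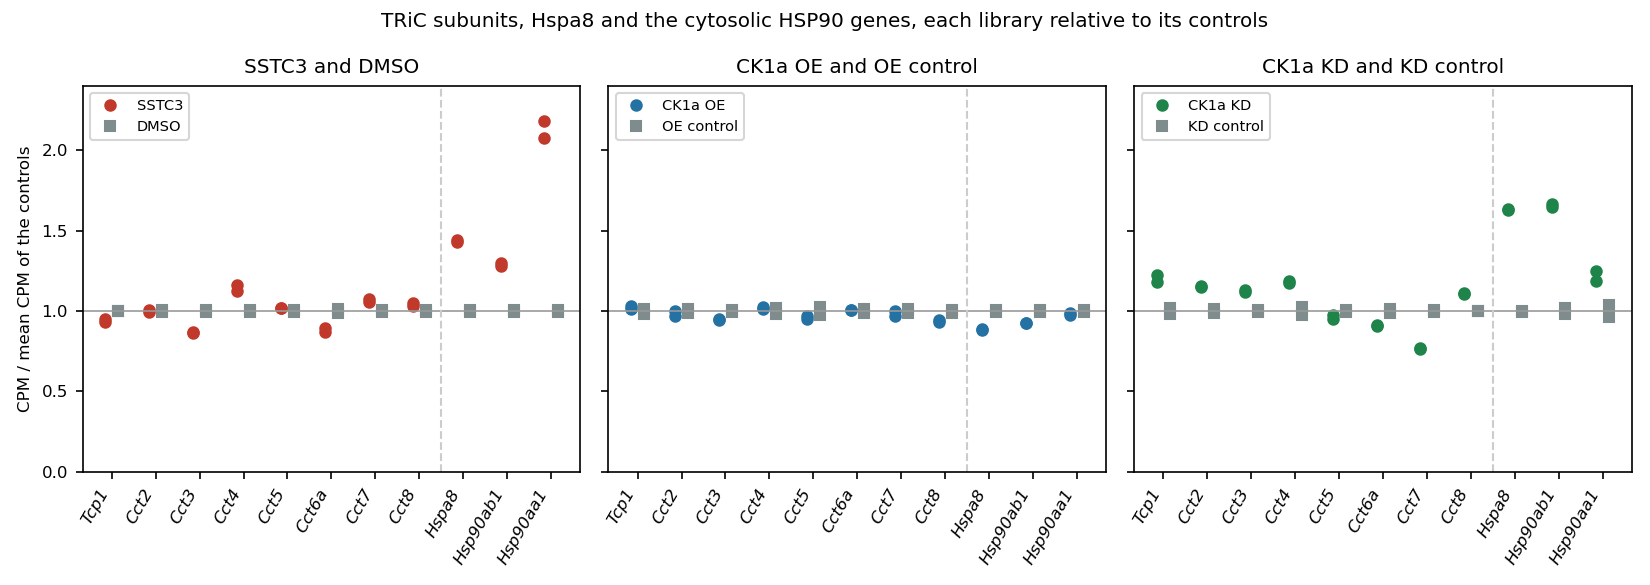
CPM of the TRiC subunit genes, Hspa8, Hsp90ab1 and Hsp90aa1 in each library divided by the mean of the 2 control libraries of the same set, with 1 point per library. In the knockdown panel Hspa8 (1564 and 1559 CPM) and Hsp90ab1 (2790 and 2818 CPM) stand far above their controls while Cct7 lies below 1, in the SSTC3 panel Hsp90aa1 lies above 2, and in the overexpression panel the points lie near 1.

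Hspd1 rose to 787.9 and 808.5 CPM in CK1a_KD libraries, against 650.5 and 681.6 CPM in controls (0.30 ± 0.04, edgeR, adjusted p = 3.83e-09). Its partner gene Hspe1, which lies head to head with it, was not called, at 197.5 and 194.1 CPM against 204.1 and 195.8 CPM. The other mitochondrial members fell, Hspa9 by 0.27 and Trap1 by 0.22 on the log2 scale. Ptges3 rose (0.24) and Hspa14 (−0.36) and Fkbp4 (−0.10) fell. The Trap1 call was lost without CK1a_KD replicate 2, and that of Fkbp4 without either CK1a_KD library or KD_control replicate 1. Stip1, Ahsa1, St13, Hspa4, Bag1, Dnajb6, Hspa2 and Hspa1l were not called. Some of these depended on the setting. Hspa4, St13 and Hspa1l were called lower with all 12 libraries in 1 fit. So was Hspa4 with library totals, and Hspa1l with at least 1 CPM in 2 libraries. The log2 fold change of Stip1 was −0.105 without KD_control replicate 2, and that of Bag1 was 0.122 without KD_control replicate 1.

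The factors differed from each other in this set. Hsf1 rose to 85.7 and 84.5 CPM in CK1a_KD libraries, against 75.5 and 72.8 CPM in controls (0.23 ± 0.06, edgeR, adjusted p = 0.00117). Hsf2 was low, at 9.47 and 9.47 CPM against 10.1 and 11.9 CPM, and was not called.

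The 3 comparisons share no library, and their values for the members can be set side by side. Of the 29 members called higher with SSTC3, 2 were called higher and 8 lower in libraries labelled CK1a_OE. In CK1a_KD libraries, 12 of the 29 were called higher and 7 lower, and 2 were not tested. Over all genes, 5.78% were called higher and 7.57% lower in libraries labelled CK1a_OE, and 28.3% higher and 26.4% lower in CK1a_KD libraries. The shares of these members higher in libraries labelled CK1a_OE and lower with knockdown were near those of all genes. Their shares lower in libraries labelled CK1a_OE and higher with knockdown were above those of all genes. These members were picked by their SSTC3 call, so nothing is read from the shares. Hspa1b, Cryab, Hspa8, Hsp90ab1, Hspd1 and Cct8 were called higher with SSTC3 and with knockdown and lower in libraries labelled CK1a_OE. Of these, Cryab, Hspa8 and Hsp90ab1 kept each call under every alternative. The knockdown call of Hspa1b, the overexpression call of Hspd1, and the SSTC3 and overexpression calls of Cct8 did not. The overexpression call of Hspa1b lacked an adjusted p with DESeq2. How many of all genes show the same 3 calls was not counted, so nothing about the list is read from this pattern. Hspa4l was called higher in all 3 comparisons, although its overexpression call was lost under 4 alternatives. The inducible genes Dnajb1, Dnajb4 and Chordc1 were called higher with SSTC3 and lower with knockdown. The differences between comparisons were not tested.

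The 32 other genes of the pathway, none of them members, include further cochaperones and the prefoldin subunits. With SSTC3, 10 were called higher, 10 lower and 12 neither, near the 27.1% higher and 26.5% lower of all genes. Those named are among the genes with the smallest p-values in each comparison. Serpinh1, the collagen chaperone HSP47 of the endoplasmic reticulum (log2 fold change 0.81), the ubiquitin gene Ubb (0.49), Dnajb5 (0.94) and Bag5 (0.51) were higher, and Cdc37l1 was lower (−0.37). In libraries labelled CK1a_OE, where 5.78% of all genes were higher and 7.57% lower, Bag5 was higher (0.24) and Hspb6 lower (−0.30) and 29 others were not called. In CK1a_KD libraries 10 of 31 were higher and 11 lower, where 28.3% of all genes were higher and 26.4% lower. There, Ubb (−0.81), Hspbp1 (−0.72) and Serpinh1 (−0.67) fell, while Dnajc2 (0.83), the ribosomal partner of HSPA14, and the kinase-specific HSP90 cochaperone Cdc37 (0.50) rose. Serpinh1 and Ubb were thus called higher with SSTC3 and lower with knockdown.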

How the data were processed

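Messenger RNA of 12 mouse libraries was sequenced in 6 groups of 2. Per the submitters' processing notes, HISAT2 aligned the reads to mm10 and featureCounts assigned them to genes, and the deposited files hold raw counts per gene. Their versions, the strand setting and the annotation used are unknown: not given in the sources used here. Symbols, positions and exon lengths came from GENCODE M21, and promoters from RefSeq (GRCm38.p6).

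Each comparison was fitted on its own 4 libraries, all genes together, with edgeR 4.0.16 in R 4.3.3 (filterByExpr, TMM, robust quasi-likelihood F test, no block). P-values were adjusted by the Benjamini-Hochberg method across all tested genes (threshold 0.05), and the SE is the absolute log2 fold change divided by the square root of F. CPM values use library totals and RPKM adds exon length, the union of all annotated exons of a gene. Each fit had 2 residual degrees of freedom. The median prior degrees of freedom, from pooling over genes, were 254.2 for SSTC3, 51.18 for overexpression and 59.51 for knockdown. The SE and p-values of a gene thus rest mostly on the pooled spread. Counting intervals and the level of 3 counts cover counting error only. Replicate pairs differed by more than sampling noise, with a chi-square of 2.29 to 3.61 per degree of freedom, so no library was a copy.

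The members and lists were chosen with earlier results of these data known. The rule for named genes gives values per library for the inducible class, the heat shock factors, Hspa8, Hsp90ab1 and, in each direction of a comparison, the 4 members with the smallest p, and the 6 other pathway genes with the smallest p per comparison. A gene that this rule takes is not reported here. The procedure was tested on simulated data. Alternatives were DESeq2 1.42.0, limma-voom (limma 3.58.1), scaling by RLE factors or by library totals, a filter of at least 1 CPM in 2 libraries or none, 1 fit of all 12 libraries, a replicate block and leaving out each library.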

Additional observations from a re-analysis of the deposited data

How the results depend on the processing

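No called member changed direction under the 12 alternatives of any comparison. Of the calls, 27 of 34 held under every alternative for SSTC3, 4 of 12 for overexpression and 22 of 28 for knockdown. The 4 include Hspa1b, which had no adjusted p with DESeq2 and so was not called by it. Some members not called in the main fit were called under an alternative that kept all libraries. With SSTC3 these were Fkbp4, Tcp1 and Trap1, all lower with library totals. With knockdown they were Hspa4, St13, Hspa1l and Bag3, all lower. The SSTC3 calls, on a list chosen with that contrast known, remain a description. With library totals, the SSTC3 class medians of log2 fold change were 2.285 (inducible), 0.262 (abundant HSF1-raised), 0.023 (constitutive) and −0.20 (factors), with 8 members lower. With DESeq2 the first 3 were 2.32, 0.297 and 0.058, and without a filter the first 2 were 2.321 and 0.298. With all 12 libraries in 1 fit the inducible median was 1.885, as a thirteenth gene, Hspb8, entered the fit. Leaving out 1 library gave 3 to 6 members lower with SSTC3. For overexpression, DESeq2 called 0 higher and 5 lower, and the fit of 12 libraries 1 higher. Leaving out 1 library gave 1 to 2 members higher and 6 to 10 lower, with medians of −0.118 to −0.056 (abundant HSF1-raised) and −0.04 to −0.005 (constitutive). For knockdown, the inducible median was 0.047 with DESeq2, 0.184 with limma-voom, 0.038 without a filter, 0.177 with at least 1 CPM in 2 libraries and −0.038 with 12 libraries, so its sign depends on the setting. Its range leaving out 1 library was 0.027 to 0.237. The abundant HSF1-raised median was −0.055 with library totals and −0.056 with 12 libraries, and −0.038 to 0.019 leaving out 1 library. The constitutive median was −0.007 with library totals, 0.012 with at least 1 CPM in 2 libraries and −0.033 with 12 libraries, and −0.013 to 0.042 leaving out 1 library. The cause of the other shifts was not tested. Replicate numbers showed no pairing, with correlations of deviations of −0.04, −0.02 and −0.05 for SSTC3, overexpression and knockdown. With the replicate block, 27, 2 and 17 members were higher and 5, 8 and 9 lower. Depth limits Hspa1a, Hspa1l and Dnaja4 outside the SSTC3 set, and Hspb1 and Cryab in the knockdown set.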
